A study of Rattus norvegicus with 6 samples.

Results

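Genes of the ERK cascade and 2 phosphatases that switch it off, Dusp6 and Dusp1, were followed in the hippocampus of a high and a low avoidance rat line. The set was defined as Dusp6, Dusp1, Mapk3, Map2k1, Map2k2, Braf and Hras, and a probe set counted as a member where the platform annotation names exactly 1 gene and that gene is among these 7. This gave 4 of the 4736 genes named alone on the array, with 11 of its 8799 probe sets: 2 for Dusp6 and 3 each for Dusp1, Map2k1 and Map2k2. The rule gave no probe set for Mapk3, Braf or Hras, which were not analysed here. The genes were chosen with the difference between the lines in view, so the line differences of the members are given as a description, with no test.

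The high avoidance line (Syracuse High Avoidance, SHA) and its counterpart (Syracuse Low Avoidance, SLA) are rats selectively bred for good or poor learning of two-way active avoidance, in which a rat crosses a box to avoid a signalled shock. Whole hippocampi were taken 2 weeks after that testing, in both lines alike, and RNA of 3 rats was combined in each pool. There were 3 SHA pools and 3 SLA pools, each on 1 array, so n = 3 per line throughout, and no untested rats were included. Sex and age are not stated in the labels, which do not say either how the rats of different pools were related.

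The ERK cascade carries signals from growth factor and glutamate receptors to the nucleus. Ras binds Raf kinases, Raf phosphorylates the MEK kinases encoded by Map2k1 and Map2k2, and these phosphorylate the ERK kinases on a threonine and a tyrosine. Dual-specificity phosphatases remove both phosphates. Dusp6 protein is cytoplasmic and selective for ERK, and Dusp1 protein is nuclear and also acts on JNK and p38. Both phosphatase genes are themselves switched on by signalling through the cascade, so they form negative feedback. In hippocampal neurons this cascade is known for its part in synaptic plasticity and memory. Arrays measure transcript, not phosphorylation, so the activity of the cascade was not measured.

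The DNA upstream of the 2 phosphatase genes is shown because it is through transcription that signalling feeds back on them. The sequences are from RefSeq, build GRCr8, plus strand, 5′ to 3′, and end at the base before the first annotated base of the gene. They are 148 bases for Dusp6 (chr7:35979354-35979501) and 250 bases for Dusp1 (chr10:17184603-17184852). Capitals mark matches on either strand to 4 motifs searched: the cAMP response element TGACGTCA, the E-box CACGTG, the ETS core in the form GGAAG and the CCAAT box. Shorter forms of the ETS core, such as GGAA, were not searched and are not marked.
Dusp6: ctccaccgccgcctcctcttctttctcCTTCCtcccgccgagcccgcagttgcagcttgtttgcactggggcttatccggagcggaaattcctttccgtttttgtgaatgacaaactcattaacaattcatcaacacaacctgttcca
Dusp1: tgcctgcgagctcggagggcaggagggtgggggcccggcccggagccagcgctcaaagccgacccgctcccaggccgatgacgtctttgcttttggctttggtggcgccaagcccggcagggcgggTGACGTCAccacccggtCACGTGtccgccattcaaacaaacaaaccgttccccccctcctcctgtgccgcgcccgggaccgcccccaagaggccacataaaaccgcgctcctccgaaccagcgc
The Dusp1 window held 1 full cAMP response element, a motif found in 1.59% of 33469 RefSeq windows of that length, and 1 E-box, found in 5.59%. The Dusp6 window held 1 match to GGAAG, on the minus strand, which the plus strand printed above shows as CTTCC. A match on either strand was found in 43.4% of windows of its length. It held no match to the other 3 motifs in these letters. The windows compared were the first bases of each RefSeq upstream entry. At the length of the Dusp6 window they need not end where a gene begins, as that window does. These matches describe the windows and were not tested against the expression values.

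Values are linear intensities as the authors deposited them, in scaled units with a 2%-trimmed mean near 250 on the 6 arrays. Log2 differences are SHA minus SLA ± standard error (SE) from a limma fit over the 6555 probe sets that remained after the dimmest 25% were left out. Before taking logs, values under 8.9, which is the 10th percentile, were raised to 8.9, called the floor below. Of the 11 member probe sets 10 passed this filter. Over the whole array 0 of 6555 probe sets (0%) had an adjusted p under 0.05 in limma, and 98 (1.5%) had an unadjusted p under 0.05, or 345 with the pool number as a block. Neuronal content was read from 33 probe sets of 20 neuronal marker genes, of which none was at or under the floor in any pool. The floor is low and many of these genes mark neurons in general. The hippocampal label itself was therefore not tested. Neurogranin (Nrgn) ranged over the pools from 4273 to 7730 on L09119_g_at, hippocalcin (Hpca) from 3721 to 6855 on D12573_at and Neurod2 from 284 to 487 on D82868_at. Others were dimmer, such as Neurod1 on D82074_at, from 24.8 to 104.7.

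Dusp6 transcript was higher in the SHA pools. On U42627_at it read 176.6, 275.3 and 267.7 in SHA pools 1, 2 and 3, against 82.0, 163.8 and 102.8 in SLA pools 1, 2 and 3. The lowest SHA pool lay above the highest SLA pool, by 176.6 against 163.8. The means were 239.9 ± 54.9 in SHA and 116 ± 42.5 in SLA (SD), a log2 difference of 1.08 ± 0.38, or 2.11-fold. U42627_at was the only 1 of the 11 member probe sets whose pools did not overlap, where 5.66% of all probe sets tested had lines that lay apart and 2.01% lay wholly higher in SHA. Its difference exceeded that of 98.6% of probe sets tested, which is the property that brought the gene into the set.

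The second Dusp6 probe set, X94185cds_s_at, read 111.3, 171.0 and 219.3 in SHA, against 87.8, 126.1 and 92.1 in SLA. Here the lines overlapped, since SHA pool 1 lay below SLA pool 2. The means were 167 ± 54.1 in SHA and 102 ± 21.0 in SLA, a log2 difference of 0.68 ± 0.39. With the pool number as a block the standard error was 0.26 on U42627_at and 0.31 on X94185cds_s_at. Between pools of the same number, SHA lay above SLA in 3 of 3 comparisons on both probe sets, by 1.11, 0.75 and 1.38 on U42627_at and by 0.34, 0.44 and 1.25 on X94185cds_s_at (log2, numbers 1, 2 and 3). For U42627_at this count follows from its lines not overlapping and adds nothing to that. The sizes differed most in number 1, where the 2 probe sets naming the same gene gave 1.11 and 0.34.

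**Figure D1:**
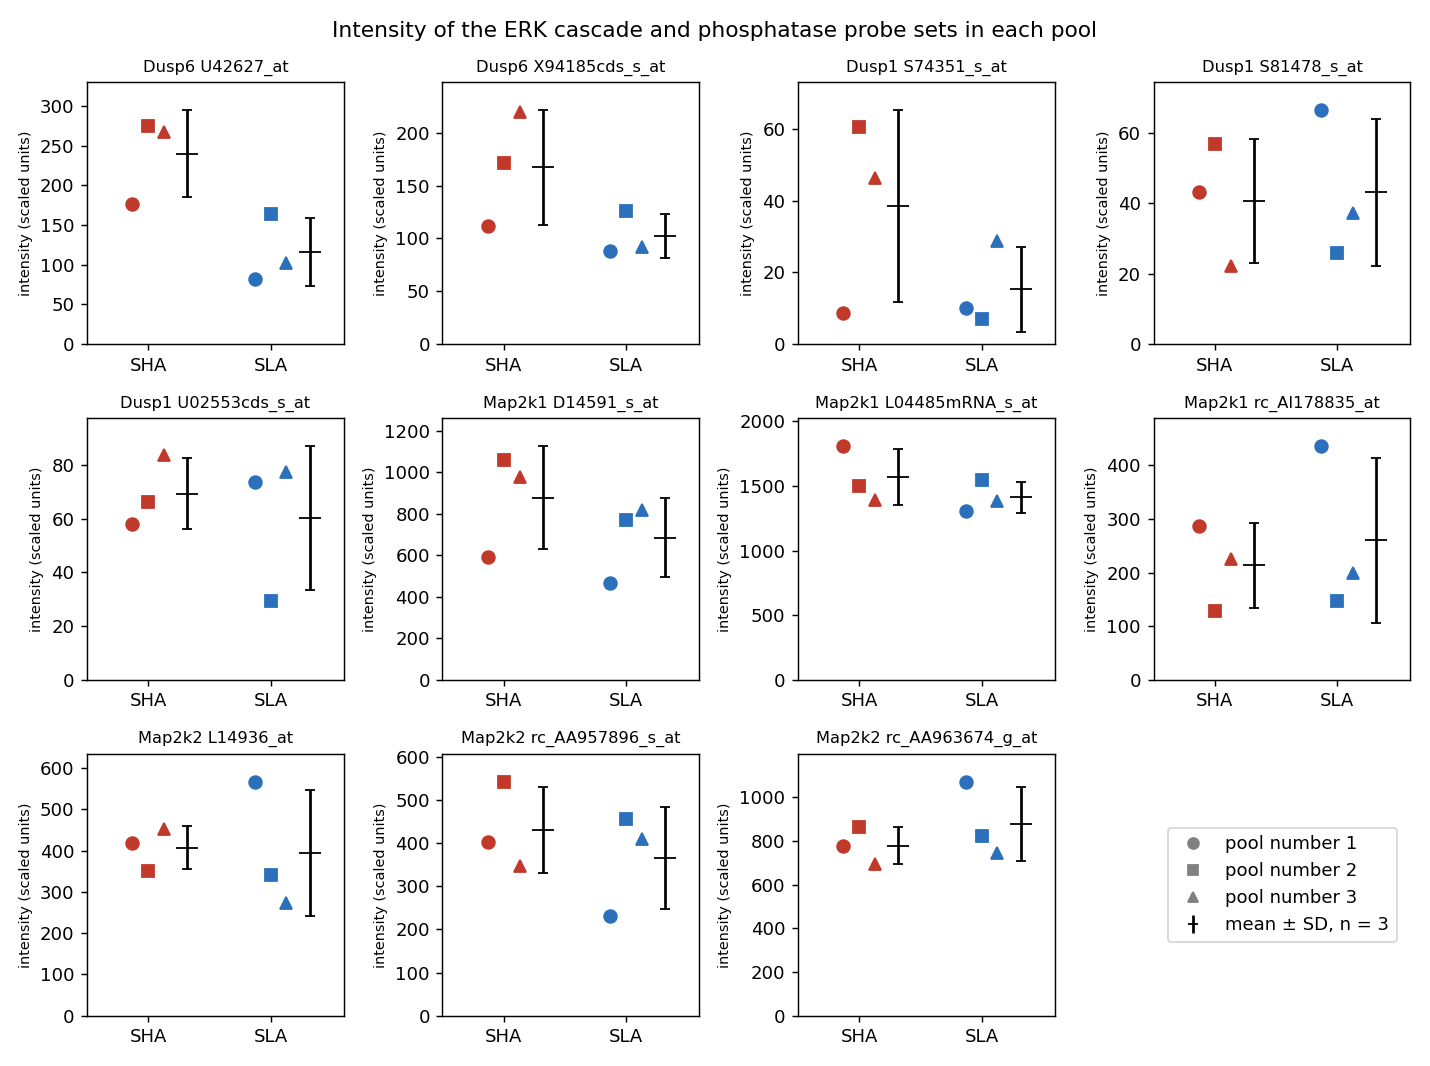
Intensity (vertical axis, linear scaled units from 0) of each of the 11 member probe sets in SHA pools (left, red) and SLA pools (right, blue). Symbols mark the pool number and bars the mean ± SD of 3 pools. Only on Dusp6 U42627_at does every SHA pool, from 176.6 up, lie above every SLA pool, up to 163.8.

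Dusp1 was dim and its 3 probe sets did not give one pattern. On U02553cds_s_at, the brightest, it read 58.1, 66.0 and 83.7 in SHA, against 73.7, 29.4 and 77.5 in SLA. SLA pool 2 was low and the other 5 pools lay between 58.1 and 83.7, so the lines overlapped. The log2 difference was 0.31 ± 0.55, within its standard error. On S81478_s_at Dusp1 read 43.0, 56.8 and 22.0 in SHA, against 66.3, 25.8 and 37.1 in SLA, a log2 difference of -0.08 ± 0.65. The highest pool there was SLA pool 1 and the lowest SHA pool 3.

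S74351_s_at, the third Dusp1 probe set, did not pass the filter on dim probe sets. It read 8.8, 60.6 and 46.3 in SHA, against 10, 6.9 and 28.9 in SLA, with SHA pool 1 and SLA pool 2 under the floor. Its difference of log2 means was 1.09 and depends on that floor, and the values of the lines overlapped. Between the pools numbered 2, SHA lay above SLA on all 3 Dusp1 probe sets, by 1.17 on U02553cds_s_at, 1.14 on S81478_s_at and 2.77 on S74351_s_at (log2). Between the pools numbered 1, SHA lay below SLA on all 3, by values of -0.34, -0.62 and -0.17 in the same order. On U02553cds_s_at the log2 difference was -0.14 without SLA pool 2, so the sign of the Dusp1 value rests on that pool.

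Map2k1, which encodes the kinase MEK1, did not separate the lines on any of its 3 probe sets. On D14591_s_at it read 594.5, 1061.3 and 977.5 in SHA, against 466.3, 770.6 and 819.0 in SLA, a log2 difference of 0.36 ± 0.31. SHA lay above SLA at each pool number, by 0.35, 0.46 and 0.26, while the pools of the lines overlapped. On L04485mRNA_s_at it read 1808.3, 1502.2 and 1389.5 in SHA, against 1305.9, 1546.7 and 1382.2 in SLA, a log2 difference of 0.15 ± 0.22. These 6 values stayed within 1305.9 and 1808.3, with SHA pool 1 the highest. On rc_AI178835_at it read 286.5, 129.1 and 225.7 in SHA, against 435.4, 146.2 and 199.9 in SLA, a log2 difference of -0.20 ± 0.46.

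Map2k2, which encodes MEK2, did not separate the lines either. On L14936_at it read 419.7, 351.8 and 451.7 in SHA, against 566.5, 341.8 and 274.1 in SLA, a log2 difference of 0.11 ± 0.31. The highest and the lowest of these pools were both SLA. On rc_AA957896_s_at it read 403.7, 542.2 and 346.6 in SHA, against 231.4, 456.6 and 408.9 in SLA, a log2 difference of 0.27 ± 0.32, with SLA pool 1 the lowest. On rc_AA963674_g_at it read 777.4, 861.8 and 692.1 in SHA, against 1069.2, 820.0 and 742.9 in SLA, a log2 difference of -0.16 ± 0.24, with SLA pool 1 the highest. Each of the 6 differences of the MEK genes was at most 1.28-fold, and 5 of the 6 were smaller than their standard error. With the pool number as a block 3 of the 6 were smaller, and D14591_s_at was at 0.36 ± 0.14.

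Over the 4 genes, 8 of the 11 probe sets had a higher mean log2 value in SHA and 3 a lower one, where 48.1% of all probe sets tested were higher in SHA. The genes were picked on this contrast, so nothing is read from that count.

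**Figure D2:**
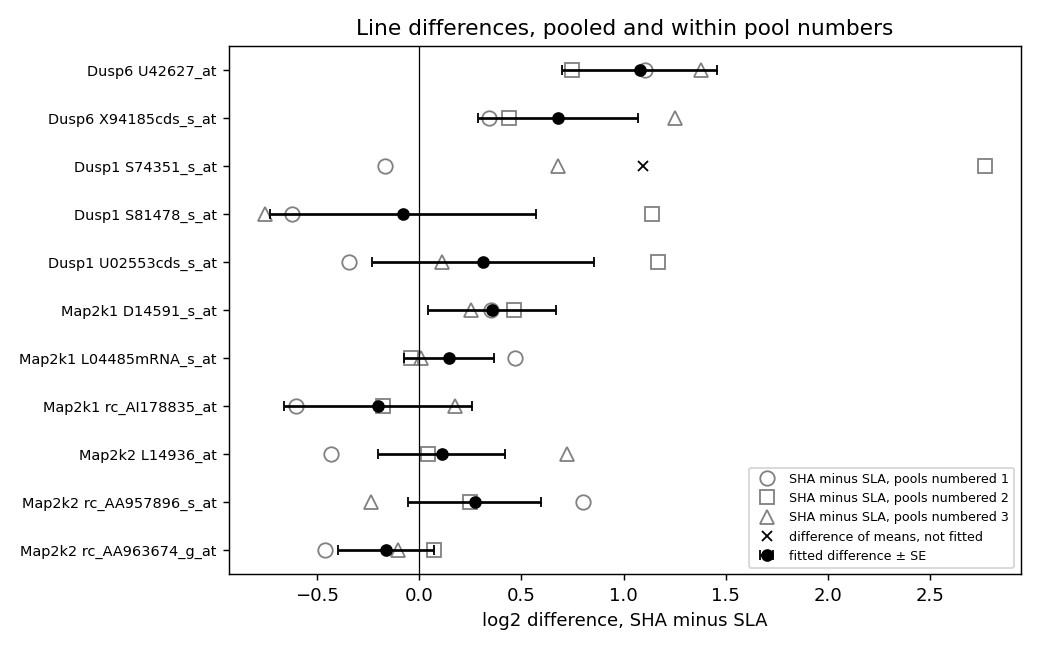
Log2 difference SHA minus SLA (horizontal axis) of each member probe set. Filled points and bars are fitted differences ± SE, the cross is the unfitted difference of Dusp1 S74351_s_at, and open symbols are differences between pools of the same number. Both Dusp6 probe sets have 3 of 3 open symbols above 0, which on U42627_at follows from its lines not overlapping. Those of Dusp1 lie on both sides of 0.

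Part of the variation followed the pool number and not the line. Of the sum of squares of log2 values over the 6 pools, the pool number took 79.9% for Map2k1 on D14591_s_at and 89.7% on rc_AI178835_at, against a median of 62.4% over all probe sets tested. The 2 probe sets went opposite ways. On D14591_s_at the pools numbered 1 were the lowest of each line (594.5 in SHA and 466.3 in SLA), and on rc_AI178835_at they were the highest (286.5 in SHA and 435.4 in SLA). For Dusp6 the number took 26.8% and the line 69.2% on U42627_at, and 30.0% and 51.4% on X94185cds_s_at. For 8 of the 11 member probe sets the number took more than the line, as it did for 85.3% of all probe sets tested. The number has more degrees of freedom than the line, so its share tends to be the larger even without an effect. Nothing is read from that count.

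The pool-number term, which played no part in choosing the genes, was tested in a limma fit with line and number, over all probe sets. This test was chosen after the data were seen. It passed at an adjusted p under 0.05 for 7.6% of probe sets tested (498) and for 1 of the 10 member probe sets tested. That was Map2k1 D14591_s_at, at adjusted p = 0.046, which ranged from 0.043 to 0.25 over 13 alternative settings and was past the threshold in 4 of them. Map2k1 rc_AI178835_at had adjusted p = 0.061, and the other members had adjusted p from 0.24 to 0.77 in the same limma fit. A share of 1 in 10 is near the 7.6% of the array.

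**Figure D3:**
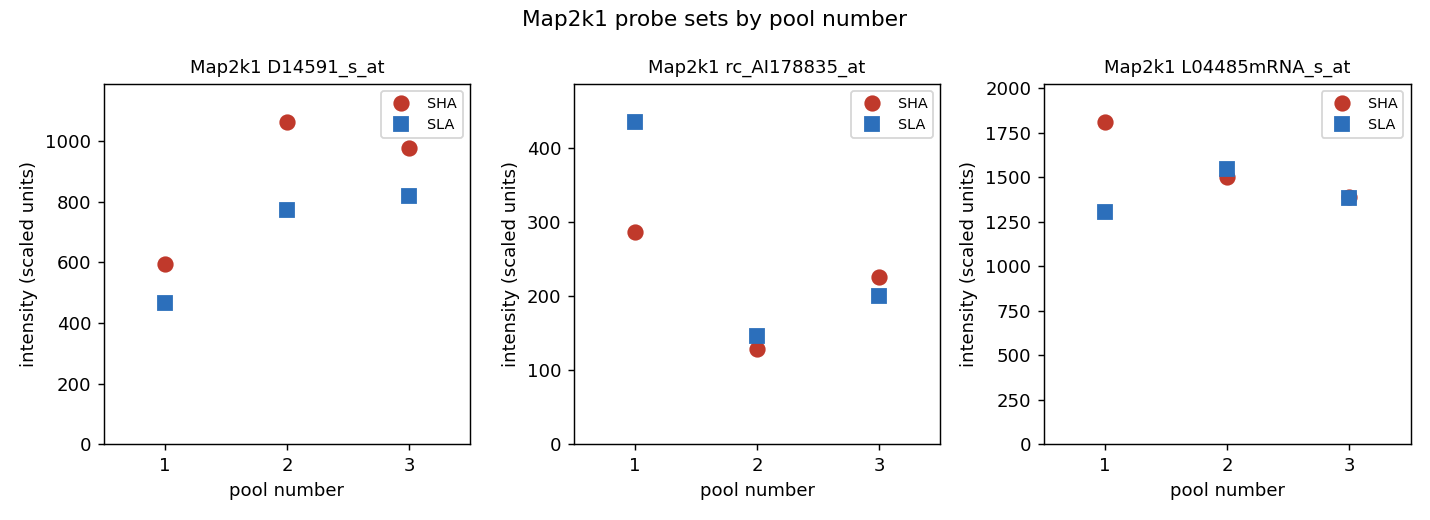
Intensity (vertical axis, linear scaled units from 0) of the 3 Map2k1 probe sets by pool number (horizontal axis), SHA in red circles and SLA in blue squares. The pools numbered 1 are lowest on D14591_s_at (594.5 in SHA, 466.3 in SLA) and highest on rc_AI178835_at (286.5 in SHA, 435.4 in SLA).

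Other measures moved with the pools. The added bacterial and phage controls read 5458 and 12282 on the SHA and SLA arrays numbered 1, 1121 and 640 on those numbered 2, and 2279 and 1564 on those numbered 3. The geometric mean of the neuronal marker probe sets was 643, 898 and 742 in SHA pools 1, 2 and 3, against 475, 837 and 675 in SLA pools 1, 2 and 3, which overlapped. Of these 33 probe sets 28 were higher and 5 lower in SHA (none past the threshold), with a log2 difference of the mean level of 0.22. Within each line Dusp6 on U42627_at followed the same order of pools, number 2 above 3 above 1. Relative to this neuronal level its log2 difference was 0.85, in place of 1.08, and its pools still did not overlap. On X94185cds_s_at the relative difference was 0.45, in place of 0.68. Relative to the same level, Map2k1 L04485mRNA_s_at was at -0.08 and Map2k2 L14936_at at -0.11, each with a sign opposite to the unadjusted value.

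Of 13 microglial marker probe sets tested 12 were lower in SHA and 1 higher, where 48.1% of all probe sets tested were higher. None passed after adjustment in limma (lowest adjusted p 0.81), and 3 had an unadjusted p under 0.05. Their geometric mean lay between 86.6 and 99.96 in SHA pools and between 160 and 166 in SLA pools. Cd74, the invariant chain of MHC class II, had the widest differences among them, with 7.8, 10.4 and 7.2 in SHA, against 246.2, 127.8 and 86.8 in SLA, on X13044_at. SHA pools 1 and 3 there were under the floor, so the size of that difference depends on it. The Cd74 probe sets not tested had means of 12.8 in SHA and 18.2 in SLA (X14254cds_at), and 10.4 and 69.9 (X14254cds_g_at). Without the 2 tested Cd74 probe sets, a choice made after the data were seen, 10 of 11 were lower and the level was 120 to 150.5 in SHA and 147 to 195 in SLA, which overlapped. Of 14 oligodendrocyte probe sets 12 were lower in SHA (median -0.19) and none passed. Of the 21 microglial probe sets on the array 9 were at or under the floor in at least 1 pool and 1 of Ptprc, the leukocyte marker CD45, in all 6. The levels of astrocyte markers (942 to 1063 in SHA, 856 to 1067 in SLA), of oligodendrocyte markers (651 to 773 and 726 to 935), of endothelial and blood markers (150.9 to 186 and 158 to 215) and of choroid plexus and meningeal markers (92.4 to 122 and 85.5 to 121) overlapped between the lines. The part of these cell types in the Dusp6 difference was not tested. In whole tissue, fewer cells of a type and less RNA per cell cannot be told apart.

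Agreement between probe sets of a gene was described from deviations from the line means, which leave out the line difference. The 2 Dusp6 probe sets differed by a root mean square of 0.19 on the log2 scale, and 3.24% of 5372 probe sets of other genes were nearer to U42627_at than its partner was. For Dusp1 the 3 pairs differed by 0.61 to 1.21, and 16.6% to 71.9% of probe sets of other genes were nearer. Map2k1 pairs differed by 0.42 to 0.92 with 34.1% to 87.1% nearer, the widest pair being D14591_s_at and rc_AI178835_at. Map2k2 L14936_at and rc_AA963674_g_at were closer, at 0.25 with 6.79% nearer, and rc_AA957896_s_at lay 0.67 from the first and 0.46 from the second. Most of these probe sets carry the _s_at suffix, which on this array type marks probes that can also match related transcripts. Which transcript each of them reads is therefore uncertain.

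The genes whose pool values were most like those of Dusp6 on U42627_at were Akt2, Vdac1 and Ppat, by the root mean square difference of centred log2 values over 6 pools. Akt2, a kinase of insulin signalling, lay at 0.15, Vdac1, a channel of the outer mitochondrial membrane, at 0.19, and Ppat, an enzyme of purine synthesis, at 0.22. Akt2 on rc_AI105076_s_at read 69.7, 114.7 and 86.4 in SHA, against 31.0, 66.7 and 46.9 in SLA. As on U42627_at, pool 2 was the highest and pool 1 the lowest within each line. The second Dusp6 probe set lay at 0.28, with 0.17% of probe sets of other genes nearer. U42627_at was used as the brighter Dusp6 probe set, and Dusp6 itself was chosen for its line difference. Genes near U42627_at therefore share that difference by construction.

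Nearest to Dusp1 on U02553cds_s_at were Ctsl, a lysosomal protease, at 0.12, Triobp, an actin-binding protein, at 0.16, and Isl2, a homeodomain transcription factor, at 0.19. Ctsl on S85184_g_at read 214.2, 219.9 and 248.6 in SHA, against 246.7, 107.5 and 232.1 in SLA. The low value in SLA pool 2 is the feature these 4 probe sets have in common. The other Dusp1 probe sets were farther from U02553cds_s_at than that, S81478_s_at at 0.65 and S74351_s_at at 0.97.

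**Figure D4:**
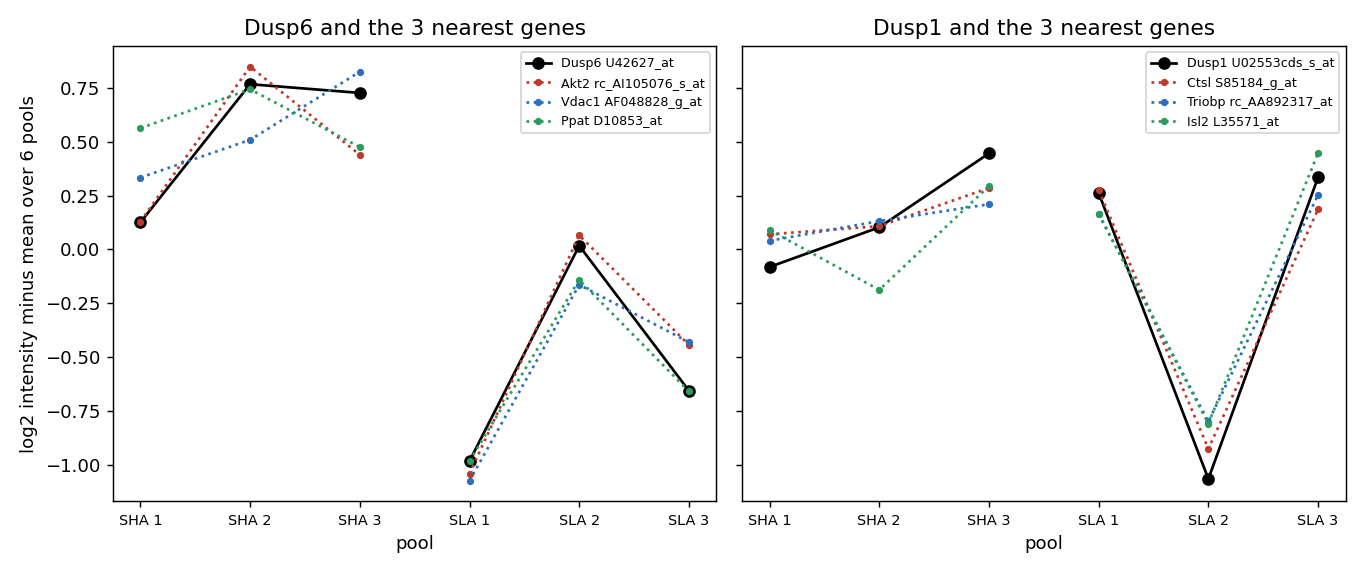
Log2 intensity minus the mean over 6 pools (vertical axis) in SHA pools 1 to 3 and SLA pools 1 to 3 (horizontal axis) for Dusp6 U42627_at (left) and Dusp1 U02553cds_s_at (right), each in black with the 3 nearest genes in colour. Dusp6 and its neighbours are lowest in SLA pool 1, and Dusp1 and its neighbours in SLA pool 2.

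The rest of the pathway was read from 6 lists of 182 genes other than the members, of which 94 had a probe set naming them alone and 85 (154 probe sets) were tested. None of these 154 probe sets passed at an adjusted p under 0.05 in limma. At an unadjusted p under 0.05 there was 1, lower in SHA, where 1.5% of the array was so called. With the pool number as a block there were 8 of the 154, against 345 of 6555 on the array. In all 81 were higher and 73 lower in SHA, with a median log2 difference of 0.02, against -0.01 over all probe sets tested. The pools did not overlap for 4 higher and 5 lower, against 2.01% and 3.65% of the array. Genes named below have adjusted p = 1.00 in limma.

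Upstream of Raf, 12 of 32 probe sets were higher and 20 lower, with a median of -0.08. Nf1 (neurofibromin), which switches Ras off, read 405.1, 495.0 and 422.9 in SHA, against 514.8, 632.4 and 628.2 in SLA, on M82826_i_at. These pools did not overlap and the log2 difference was -0.42 ± 0.23, while the other 3 Nf1 probe sets differed by -0.18, 0.57 and -1.05. Rasa2, another protein that speeds GTP hydrolysis by Ras, read 305.8, 282.5 and 332.2 in SHA, against 375.5, 442.5 and 422.9 in SLA, a log2 difference of -0.43 ± 0.24 without overlap. On the higher side the smallest p values belonged to the exchange factor Sos1 (0.71 ± 0.70) and the adaptor Shc2 (0.80 ± 0.78), both with overlapping pools. The other probe set of each lay on the lower side, by -0.42 ± 0.28 on Sos1 rc_AA892860_at, which was below SLA at all 3 pool numbers, and by -0.31 ± 0.33 on Shc2 rc_AA859760_at. The higher Sos1 value rested on SLA pool 1, at 15.7 against 71.2 to 94.0 in SHA, and that of Shc2 on SHA pool 3, at 101.2 against 20.0 to 21.7 in SLA.

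In the Raf, MEK and ERK tiers, with their scaffolds, 16 of 27 probe sets were higher and 11 lower, with a median of 0.03. Paqr3, a Golgi protein that holds Raf away from the membrane, read 44.8, 43.8 and 78.8 in SHA, against 114.1, 96.6 and 134.3 in SLA. Its pools did not overlap, and its log2 difference of -1.09 ± 0.45 was the 1 with an unadjusted p under 0.05. Pea15, which keeps ERK in the cytoplasm, read 2124.4, 2243.2 and 2257.3 in SHA, against 3663.3, 2471.3 and 2803.6 in SLA (-0.41 ± 0.24), without overlap. Its other probe set differed by -0.07. Ywhaz, an adaptor that binds phosphorylated Raf, read 2775.0, 2900.1 and 3008.7 in SHA, against 1775.0, 2602.5 and 2309.4 in SLA on D30740_g_at. That log2 difference was 0.39 ± 0.24 without overlap, and the other 2 Ywhaz probe sets differed by 0.40 and 0.54, with overlap. SLA pool 1 was the lowest on both, at 1068.2 on D30740_at and 1498.9 on rc_AI180424_at. On rc_AI180424_at the other pools read 3715.9 to 4396.3. Ywhaq, of the same family, differed by 0.40 ± 0.30, with SLA pool 1 at 950.0 and the other 5 pools between 1817.6 and 2105.0, and its other probe sets by 0.40 and 0.03.

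Other phosphatases and brakes of the cascade were split 8 to 8 over 16 probe sets, with a median of 0.03 and no probe set free of overlap. Dusp7, a cytoplasmic ERK phosphatase closely related to Dusp6, read 75.8, 42.7 and 48.8 in SHA, against 125.8, 50.3 and 78.3 in SLA. Its log2 difference of -0.55 ± 0.53 was about its standard error and opposite in sign to that of Dusp6. Dusp5, a nuclear ERK phosphatase, differed by 0.07 ± 0.27 (263 ± 4.21 in SHA and 254 ± 47.3 in SLA), Ptpn5, the striatal-enriched tyrosine phosphatase of ERK, by 0.12 ± 0.26, and the feedback inhibitor Spry1 by -0.43 ± 0.50. These last 3 were chosen for their roles after their values were seen. The tyrosine phosphatase Ptprr differed by -0.47 ± 0.51, and the PP2A subunits Ppp2r2b and Ppp2r1a by 0.83 ± 0.65 and 0.27 ± 0.26. Their second probe sets differed by 0.22 ± 0.29 (Ppp2r2b) and by less than 0.01 in size with a standard error of 0.24 (Ppp2r1a).

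Effectors of ERK and related kinases had 8 of 12 probe sets higher and 4 lower, with a median of 0.10. Mapkapk3 on rc_AI229421_at read 224.8, 235.0 and 239.2 in SHA, against 180.6, 203.1 and 161.6 in SLA (0.36 ± 0.28), without overlap. Its other 3 probe sets differed by 0.05, -0.23 and -0.54, so its direction is uncertain. Bad, a cell death regulator phosphorylated by kinases below ERK, differed by 0.58 ± 0.40 and on its other probe set by 0.16, and Stat3 by -0.34 ± 0.51, its other probe set by 0.33.

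Genes transcribed after ERK activation had 27 of 49 probe sets higher and 22 lower, with a median of 0.06. Ier5, an immediate-early gene, read 65.7, 52.6 and 175.3 in SHA, against 301.5, 118.5 and 210.6 in SLA, a log2 difference of -1.21 ± 0.54 with overlap at SHA pool 3, and its other probe set differed by -0.45. Fosl2, a partner of Jun in AP-1, differed by -0.72 ± 0.48, and its other probe set by -0.38. On the higher side Homer1, a scaffold with an activity-induced short form, differed by 0.50 ± 0.32, with all 6 of its probe sets above 0, and the nuclear receptor Nr4a3 by 0.50 ± 0.40, with its other probe set at -0.24. Egr1, a much used readout of ERK signalling, was chosen here after its values were seen. Its 4 probe sets differed by 0.10, 0.27, -0.25 and 0.05. Other such genes, chosen likewise, went both ways with overlapping pools. Fos (-0.60 and -0.33), Arc (-0.36) and Egr2 (-1.12) were lower, and Egr3 (0.78) and Junb (0.62 and 0.08) higher.

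The parallel JNK and p38 modules had 10 of 18 probe sets higher and 8 lower, with a median of 0.06. Mapk14, the p38 alpha kinase, read 74.3, 70.3 and 74.5 in SHA, against 17.4, 68.9 and 43.0 in SLA on U91847_s_at (0.97 ± 0.61). These pools did not overlap, by 70.3 against 68.9, and its other 4 probe sets differed by -0.14 to 0.42. Mapk9, a JNK kinase, differed by 1.09 ± 0.80 on rc_AI231354_at, by 0.50 ± 0.70 on L27112_s_at and by -0.27 ± 0.36 on rc_AI231354_g_at, with SLA pool 1 at 13.8 on the first. Map3k3, a kinase above MEK, differed by -0.23 ± 0.41.

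**Figure D5:**
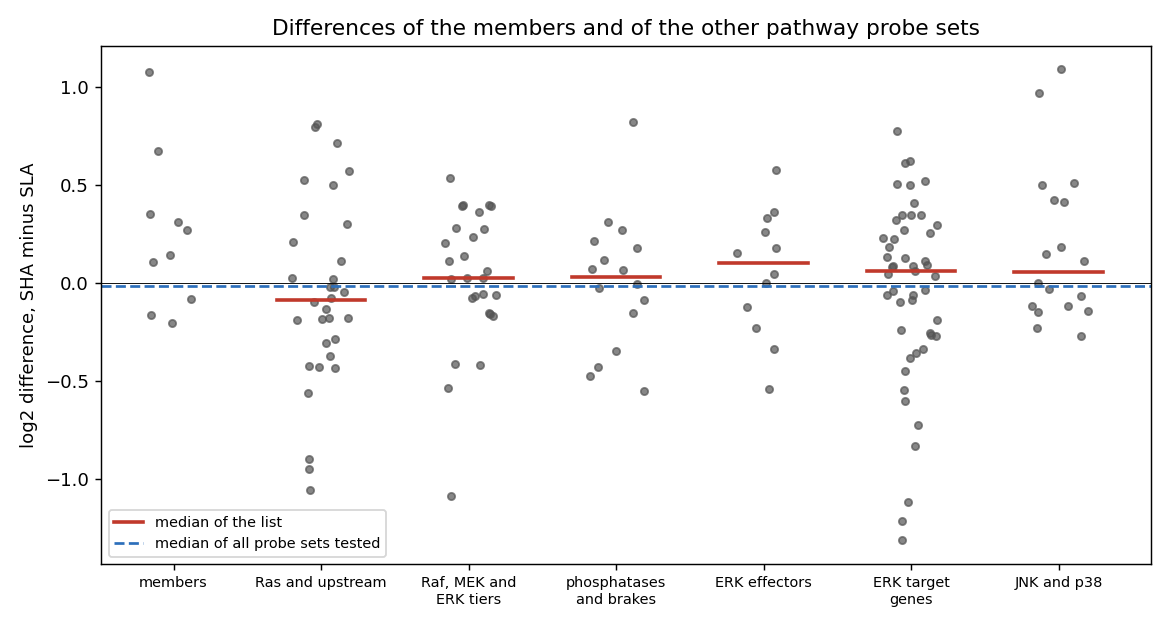
Log2 difference SHA minus SLA (vertical axis) of the 10 member probe sets tested (left) and of the other probe sets tested in 6 pathway lists, 1 point per probe set. Red bars are list medians, from -0.08 to 0.10, and the dashed line is the median of all probe sets tested, -0.01.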

How the data were processed

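RNA of 6 pools of hippocampus was measured on 6 one-colour oligonucleotide arrays. The authors deposited these as linear intensity values that were already scaled, since the 2%-trimmed means were nearly equal, and such scaling hides any shift common to all transcripts. The software used for it is not given in the sources used here. Array controls (59 of 8799 probe sets) were left out of the fits. A floor at the 10th percentile, log2 and a filter on the dimmest 25% left 6555. Genes were named by the platform annotation (7006 probe sets with 1 symbol), brought up to date by gene number with the RefSeq table of GRCr8.

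The comparison of the lines used limma 3.58.1 with R 4.3.3 (eBayes with an intensity trend, two-sided, Benjamini-Hochberg over all probe sets tested, threshold 0.05), first tested on simulated data. The members and lists were chosen with earlier results of these data known. The text names every member probe set, for each list the 2 genes of smallest p in each direction, and the 3 genes nearest to Dusp6 and to Dusp1. Deviations from the line means of same-numbered pools correlated at 0.44 (number 1), 0.68 (number 2) and 0.13 (number 3). Each of these exceeded 0.1, so the numbers were taken as pairing the pools, on the data and not on the labels, although SHA pool 3 correlated slightly higher with SLA pool 1 (0.16). The line fit, and every standard error printed without mention of a block, leaves the number out. Arrays correlated at 0.779 to 0.963, so none duplicated another. The labels do not say that pools hold different rats, and p values measure the spread between pools. The number of arrays limits the precision. Alternatives were other normalizations, floors, a pseudocount of 16, filters, variance models, array weights, the number as a block and leaving out pools. The pool-number test, the values relative to neuronal markers and the block with array weights were chosen after the data were seen.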

Additional observations from a re-analysis of the deposited data

How the results depend on the processing

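The 11 member differences were recomputed under 15 alternatives, giving 165 values, of which 149 kept their sign and 4 moved by more than the SD between pools. Dusp6 kept its sign in 15 of 15 on both probe sets, at 0.85 to 1.36 on U42627_at and 0.45 to 0.94 on X94185cds_s_at, with 0.86 to 1.36 and 0.45 to 0.94 when 1 pool was left out. On U42627_at leaving out pools could not turn the sign, since the lines did not overlap there. For every member the replicate block without weights returns the same difference, as each number holds 1 pool per line. Dusp6 was also chosen on this contrast, so its 15 of 15 is no independent support. Leaving out 1 pool turned the sign of Map2k1 rc_AI178835_at (0.12 without SHA pool 2, 0.25 without SLA pool 1), Dusp1 S81478_s_at (0.31 without SHA pool 3, 0.29 without SLA pool 1), Dusp1 U02553cds_s_at (-0.14 without SLA pool 2), Map2k2 rc_AA957896_s_at (-0.03 without SLA pool 1) and Map2k2 L14936_at (-0.12 without SLA pool 3). The count of member probe sets higher in SHA, 8 of 11, was 6 to 11. Over the array the 0 probe sets past the threshold became 12 with the replicate block and array weights together, and stayed 0 under the other settings run. The 98 probe sets of unadjusted p under 0.05 were 203 unfiltered, 63 when the dimmest 50% were dropped, 354 under array weights, 345 under the replicate block and 871 under both. Dropping single pools gave 57 to 152, the extremes being 62 for SHA pool 1, 57 for SLA pool 3, 151 for SHA pool 2 and 152 for SLA pool 2. In the pathway lists the same count of 1 became 2 with median centring, 2 with the floor at the 25th percentile, 3 with no filter, 0 when the dimmest 50% were dropped, 7 under array weights, 8 under the replicate block, 13 under both, 0 without both pools numbered 1, and 0 to 6 with 1 pool left out (0 without SHA pool 1, SLA pool 1 or SLA pool 3, 6 without SHA pool 3 and 2 without SLA pool 2). None of these lists' probe sets passed after adjustment in any setting. The pool-number count of 498 became 174 with quantile normalization, 155 with median centring, 4 with no filter, 4 with no intensity trend, and 90 to 1390 on dropping 1 pool (1390 for SHA pool 1, 125 for SHA pool 2, 174 for SHA pool 3, 866 for SLA pool 1, 90 for SLA pool 2, 191 for SLA pool 3). The cause was not tested. The replicate block changed no call after adjustment. Dusp1 S74351_s_at has pools under the floor, which limits what its difference can show.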
